A study of Mus musculus with 13 samples.

Results

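The genes described here encode the proteins that build and fill the cornified layer of the epidermis. They were taken from the array's annotation by symbol, as all genes named Lce, Sprr or S100a and 11 further genes listed by name, and each gene was read from its brightest probe set that names no other gene. Of 19938 genes measured in this way, 56 were members, and 53 of them lie on chromosome 3, where most form the epidermal differentiation complex. The other members, Calml3, Casp14 and Tgm3, lie on chromosomes 13, 10 and 2. By role there were 19 late cornified envelope genes (Lce), 13 small proline-rich genes (Sprr), 14 S100A genes for small calcium-binding proteins, 5 S100 fused-type genes (Crnn, Flg2, Hrnr, Rptn and Tchhl1) and 2 other envelope precursors (Ivl and Lor). A last group of 3, named cross-linking and processing, held Tgm3, Casp14 and Calml3, although Calml3 encodes a calcium-binding protein. The filaggrin gene Flg, also listed by name, is not analysed here. Of the 56 members, 42 passed a filter that left out the dimmest 25% of all genes.

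The samples were whole back skin of male C57Bl6 mice at postnatal day 46, in telogen, when hair follicles rest between phases of growth. The mice lived in a cycle of 12 h light and 12 h dark and were not otherwise treated, and ZT (zeitgeber time) counts the hours since the lights came on. Skin was taken every 4 h from hour 2 to hour 50. RNA of 3 mice was pooled in equal parts for each collection and put on 1 array, which gave 13 arrays. The dark arrays were the 6 of ZT14, ZT18 and ZT22, and the light arrays the 7 of ZT2, ZT6 and ZT10. Day 2 comprised the 6 arrays of hours 26 to 46 and day 1 the 6 of hours 2 to 22, while the array of hour 50 followed day 2, at ZT2 again.

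As keratinocytes leave the basal layer they make proteins that are cross-linked by transglutaminases beneath the cell membrane into the cornified envelope. Involucrin is laid down early, and loricrin, the SPRR proteins and the LCE proteins are added as the cell approaches the surface. Proteins of the S100 fused type, such as filaggrin-2 and hornerin, fill or line the dying cell, and caspase-14 takes part in breaking filaggrin down. Many S100A proteins serve keratinocytes as calcium sensors or antimicrobial proteins, and some are better known from fibroblasts, hair or neutrophils.

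The keratins that define epidermis were bright on each array. Krt10, of suprabasal keratinocytes, lay between 13016 and 14944 in intensity, and Krt5, of basal keratinocytes, between 14203 and 15571. The arrays of hours 46 and 2 stood apart from the rest. At hour 46 the summed intensity of 16 hair shaft and inner root sheath keratins was 45269, against 4144 to 6943 on the other arrays, and that of 44 keratin associated protein genes was 204782, against 17276 to 30196. At hour 2 the sum of 7 fibroblast genes was 50081, against 63504 to 73177 elsewhere, and that of 10 macrophage and dendritic cell genes was 21368, against 27465 to 33089. The sum of 6 endothelium genes was highest there, at 8519, against 6566 to 8053 on the other arrays. The same hour 2 array had the lowest median intensity of 1194 olfactory and vomeronasal receptor genes, which mark the dim end of an array, at 70.5, and the highest median was 117 at hour 14. Each sample is bulk RNA, so fewer cells of a type and less RNA per cell cannot be told apart. The error of each fit is the spread of the arrays, each a pool of mice, around the fitted values. In the 24 h fit it also holds departures from the curve. In dark minus light it also holds differences between times of day within each phase. The number of arrays limits the precision.

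The first question was which of these genes follow the time of day. A 24 h curve was fitted to log2(intensity + 16) over the 13 arrays and tested with limma's F test. P-values were adjusted by the Benjamini-Hochberg method over 14953 genes, and genes under 0.05 were called. Of the 42 members tested, 4 were called, namely Ivl, Calml3, S100a6 and Lce3c, while 2.13% of all genes tested were called. An unadjusted p under 0.05 was found for 11 members, or 26.2%, against 18.6% of all genes. The median fitted peak-to-trough difference was 0.30 in log2 over the members and 0.19 over all genes tested. The median difference between the highest and the lowest array was 0.80 in log2 over the members and 0.52 over all genes. On this scale a fold understates the change of a dim gene.

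Ivl, which encodes involucrin, was the member with the smallest p. Its intensity was 3231, 2706 and 2513 on the ZT2 arrays, 2407 and 2410.0 at ZT6, 1889 and 1962 at ZT10, 2412 and 2558 at ZT14, 2904 and 3045 at ZT18, and 3406 and 3241 at ZT22. Both ZT10 arrays were the lowest of the 13, and both ZT22 arrays the highest. The mean was 3323 ± 116 at ZT22 and 1925 ± 51.9 at ZT10 (SD, n = 2 each). The fitted curve peaked at 21.5 ± 0.50 h (SE), with the peak 0.68 ± 0.09 above the trough in log2 (SE, n = 13 arrays), or 1.602-fold, and an adjusted p of 0.00488 in limma's F test. Fitted alone, day 2 peaked at 21.1 h and day 1 at 22.4 h.

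Lor, which encodes loricrin, the main protein of the cornified envelope, had no such course. Its intensity had a lowest, median and highest value of 11725, 12530 and 13027 on the dark arrays and 11087, 11952 and 13019.5 on the light arrays. The peak-to-trough difference was 0.11 ± 0.07 in log2 (SE), with an adjusted p of 0.524 in limma's F test. Across the 13 arrays Ivl and Lor had a Pearson r of -0.13 (permutation p = 0.667, adjusted 0.667) and a Spearman rho of -0.15 (permutation p = 0.629, adjusted 0.629), and r was 0.024 without the arrays of hours 10 and 22.

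Calml3 encodes a calmodulin-like calcium-binding protein of epithelial cells. It had intensities of 2193, 1997 and 1744 at ZT2, 1815 and 1780.3 at ZT6, 1422 and 1564 at ZT10, 1279 and 1333 at ZT14, 1853 and 1603 at ZT18, and 2279.6 and 1870.5 at ZT22. The 2 ZT14 arrays were the lowest of all, and the highest values fell at ZT22 and ZT2, on either side of lights on. The curve peaked at 0.455 ± 0.684 h (SE) with a difference of 0.59 ± 0.10 in log2 (SE), or 1.51-fold, and an adjusted p of 0.0198 in limma's F test.

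S100a6 encodes calcyclin, a calcium-binding protein made by keratinocytes and fibroblasts. Its intensity was 2482, 2969.9 and 3279.8 at ZT2, 2326 and 2422 at ZT6, 2052 and 2301 at ZT10, 1906 and 2054 at ZT14, 2335 and 2297 at ZT18, and 2500.3 and 2702 at ZT22. The ZT14 arrays were among the 3 lowest, and the ZT2 arrays of hours 26 and 50 were the highest. The fitted peak lay at 0.995 ± 0.750 h (SE), with a difference of 0.49 ± 0.09 in log2 (SE), or 1.41-fold, and an adjusted p of 0.0306 in limma's F test.

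Lce3c, a late cornified envelope gene, was the called member that ran opposite to Ivl. Its intensity was 301, 295 and 314 at ZT2, 396 and 333 at ZT6, 359 and 345 at ZT10, 271 and 291 at ZT14, 289 and 221 at ZT18, and 212 and 279 at ZT22. All 6 dark arrays lay below all 7 light arrays, a separation in either direction that 0.361% of all genes tested showed. The fitted peak was at 7.55 ± 0.667 h (SE), the difference 0.58 ± 0.11 in log2 (SE), or 1.496-fold, and the adjusted p 0.0316 in limma's F test. A further probe set, shared by 6 Lce3 genes including Lce3c and set aside here, had a median intensity of 1358.

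**Figure D1:**
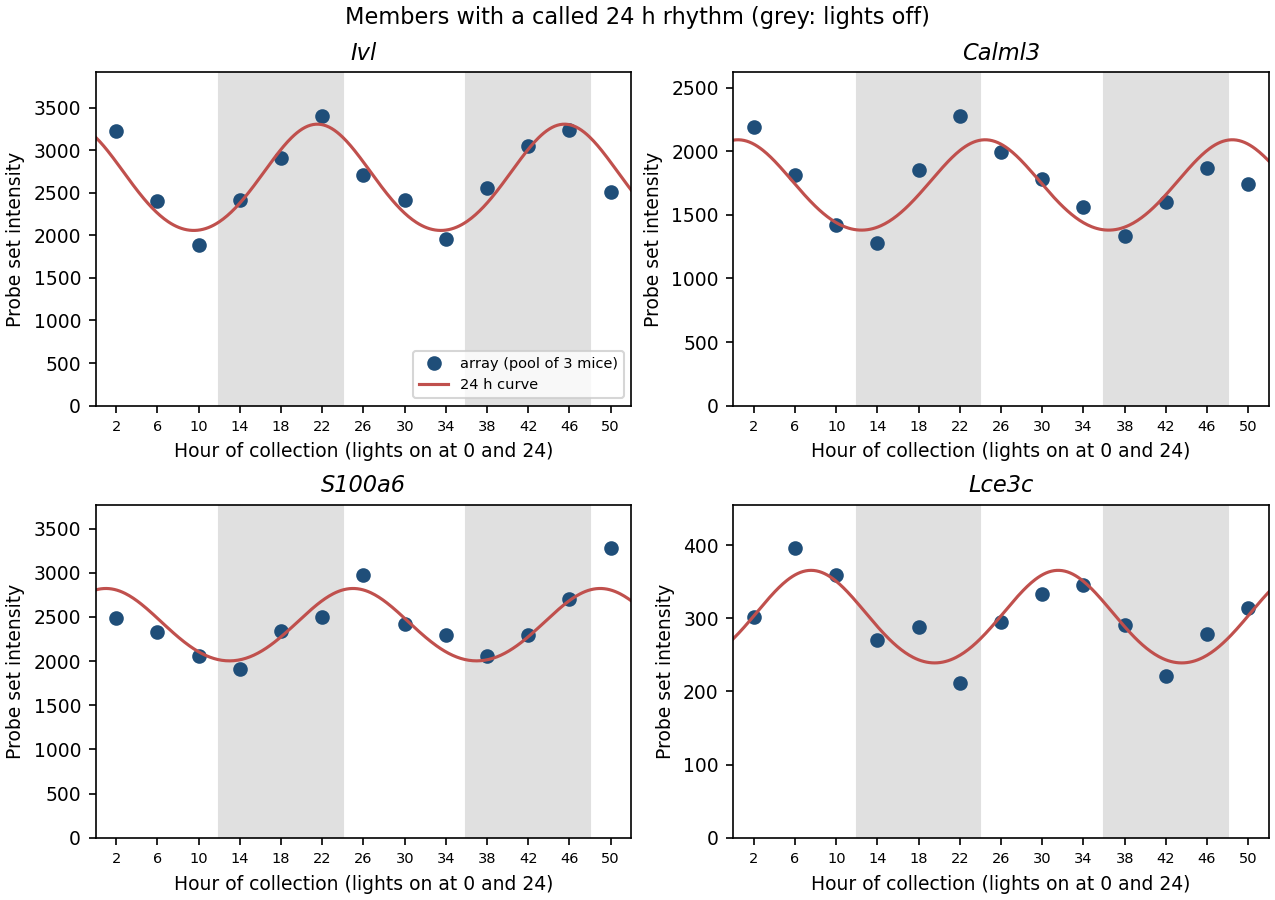
Probe set intensity (vertical axis, from 0) against the hour of collection (horizontal axis) for Ivl, Calml3, S100a6 and Lce3c, with 1 point per array of 3 pooled mice, the fitted 24 h curve as a line and the hours of darkness in grey. Ivl was lowest at ZT10 on both days (1889 and 1962), and Lce3c was lower on each dark array (212 to 291) than on any light array (295 to 396).

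How firmly these calls stand differs between the genes. Ivl kept its call in 26 of 27 alternatives, and the exception was the test with time of day as a factor in place of the curve (adjusted p = 0.0822). Calml3 lost its call in 5 of 27 alternatives, S100a6 in 8 of 27 and Lce3c in 11 of 26, mostly with a single array left out.

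The promoters of the called members are shown here, and any link of their sequence to the course of the genes was not tested. They are the 250 bases before the gene's start, read 5′ to 3′ on the gene's own strand, from RefSeq on GRCm38.p6. Capitals mark matches on either strand to TATAAA (the TATA box), TGANTCA (the site of AP-1, a factor of Fos and Jun proteins), CACGTG (the E-box bound by the clock factors CLOCK and BMAL1) or AGGTCA (the site, in single copy, of ROR and REV-ERB nuclear receptors).
Ivl promoter, chr3:92573736-92573985, minus strand: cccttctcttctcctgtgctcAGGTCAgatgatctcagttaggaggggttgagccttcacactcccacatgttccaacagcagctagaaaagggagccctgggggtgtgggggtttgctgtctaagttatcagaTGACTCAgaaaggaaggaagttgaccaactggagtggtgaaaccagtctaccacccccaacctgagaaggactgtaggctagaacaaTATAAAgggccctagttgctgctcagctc
S100a6 promoter, chr3:90612644-90612893, plus strand: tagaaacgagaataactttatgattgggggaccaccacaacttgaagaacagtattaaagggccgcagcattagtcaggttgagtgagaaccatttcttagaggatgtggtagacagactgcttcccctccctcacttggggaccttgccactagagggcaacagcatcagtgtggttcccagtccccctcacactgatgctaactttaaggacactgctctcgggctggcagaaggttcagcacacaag
Lce3c promoter, chr3:92944236-92944485, plus strand: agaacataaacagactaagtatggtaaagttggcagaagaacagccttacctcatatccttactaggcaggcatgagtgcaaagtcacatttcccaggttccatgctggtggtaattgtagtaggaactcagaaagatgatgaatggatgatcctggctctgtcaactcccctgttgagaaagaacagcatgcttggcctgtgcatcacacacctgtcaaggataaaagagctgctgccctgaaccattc
The Ivl promoter held AGGTCA from base -229, TGACTCA from base -116 and TATAAA from base -29, counted back from the start. None of these letters occurred in the windows of S100a6 and Lce3c. Calml3 is named only.

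The same motifs were counted over the promoters of all members. TATAAA occurred in 22 of 53 promoters of 49 member genes, or 41.5%, against 12.4% of 32851 promoters. TGANTCA occurred in 17, or 32.1%, against 6.75%. The genes with it included Ivl, Lor, Crnn, Rptn, Sprr1a, Sprr1b and 7 Sprr2 genes. CACGTG occurred in 2, or 3.77%, against 6.02%, and AGGTCA in 14, or 26.4%, against 14.0%. These shares count letters, many member promoters are near copies of each other, and no binding was measured here.

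Several members had a small unadjusted p and did not pass the adjusted threshold. Casp14, which encodes caspase-14, had intensities of 2192, 1807 and 1579.5 at ZT2, 2271 and 1970.4 at ZT6, 1916 and 1849 at ZT10, 1595 and 1844 at ZT14, 1661 and 1339.7 at ZT18, and 1651 and 1665 at ZT22. Its fitted peak was at 6.48 h with a difference of 0.43 ± 0.12 in log2 (SE) and an adjusted p of 0.142 in limma's F test. Its 2 lowest arrays were those of hours 42 and 50, and its highest that of hour 6. S100a14, a calcium-binding protein of epithelial cells, ranged from 989 at hour 14 to 1575 at hour 2, with a fitted peak at 0.878 h and an adjusted p of 0.0864.

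Of the S100A genes, 12 of 14 were tested, 1 was called, against 2.13% of all genes, and 6 had an unadjusted p under 0.05, against 18.6% of all genes. Their fitted peaks were spread over the day. S100a6 and S100a14 peaked near lights on, at 0.995 and 0.878 h. S100a4, which fibroblasts and immune cells also make, followed at 3.42 h (adjusted p = 0.127 in limma's F test). S100a1 had its fitted peak at 8.30 h (adjusted p = 0.233), S100a5 at 13.8 h (adjusted p = 0.225) and S100a7a, a mouse counterpart of human psoriasin, at 18.0 h (adjusted p = 0.245). Of the 12 tested, 6 had their lowest array at hour 14, which was also the array with the highest receptor median. The share of all genes with their lowest value on the hour 14 array was not counted. Without that array S100a6 had a peak-to-trough difference of 0.46, against 0.49 with it, and an adjusted p of 0.114 in limma's F test, while calls over all genes were 128, against 318 with it.

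S100a10 and S100a11, whose products bind annexins, were not called. S100a10 reached 9841 at hour 22, against 5994 to 6848 on the other dark arrays, and lay between 6063 and 7880.2 on the light arrays. S100a11 lay between 11226 and 13369 on the dark arrays and between 11881 and 13214 on the light arrays. Its adjusted p was 0.664 in limma's F test. Of the remaining tested genes, S100a13 and S100a16 had adjusted p of 0.832 and 0.477.

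**Figure D2:**
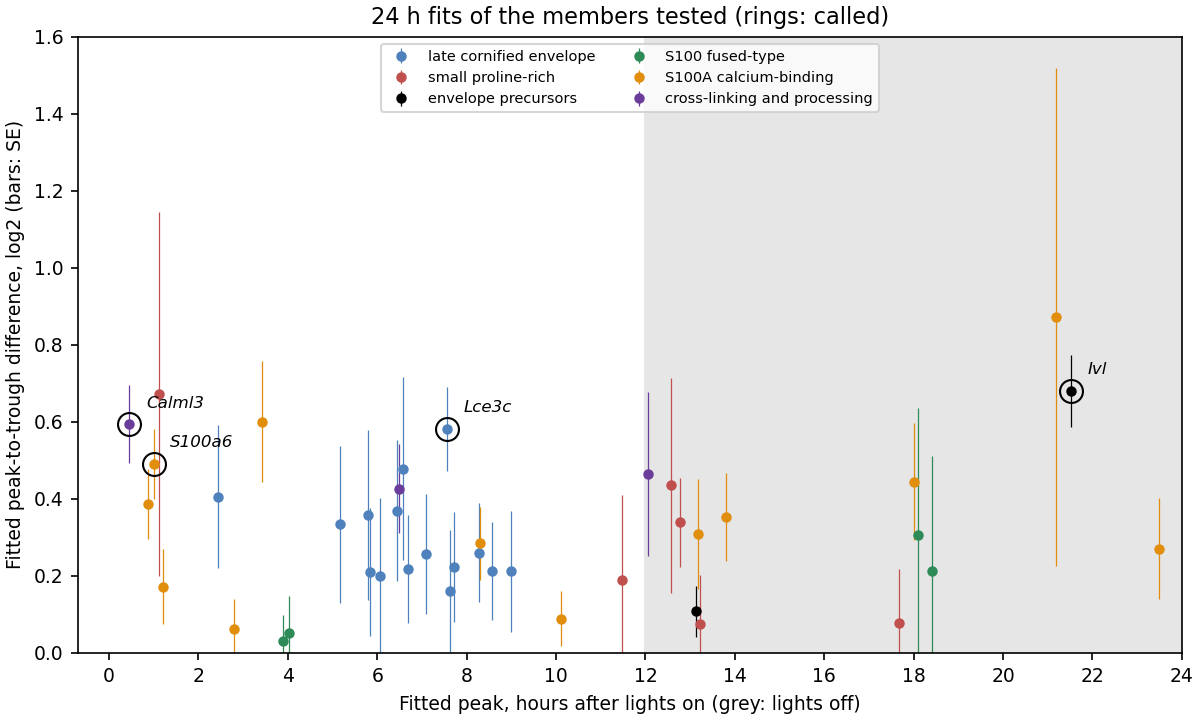
Fitted 24 h peak-to-trough difference in log2 (vertical axis, bars SE) against fitted peak in hours after lights on (horizontal axis) for the 42 members tested, coloured by role, with rings on the 4 called members and the hours of darkness in grey. The 15 late cornified envelope genes lie in the light phase, while Ivl peaks at 21.5 h.

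All 15 tested Lce genes had their fitted peak in the light phase, as did 8934 of the 14953 genes tested. Only Lce3c among them had an unadjusted p under 0.05. The 13 Lce1 genes and Lce6a had fitted peaks between 2.44 h for Lce6a and 8.998 h for Lce1c. Their median peak-to-trough difference, with Lce3c, was 0.26 in log2, against 0.19 over all genes. With the score of 5 suprabasal keratinocyte genes as a covariate, 14 of 15 peaked in the light and 8 had an unadjusted p under 0.05, and without the array of hour 42 the median difference was 0.16. These genes are close copies of each other, so probe sets of the family may share signal, and their number is not a number of independent observations.

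The Lce1 genes moved together from array to array. On the array of hour 2, each of the 13 Lce1 genes had its highest value, with deviations from the gene's own mean between 0.22 and 0.80 in log2 and a median of 0.45. At hour 42, 12 of the 13 had their lowest value, with a median deviation of -0.42. At hours 26 and 50, the other ZT2 arrays, all 13 lay below their own mean, with medians of -0.16 and -0.26. The shares of all genes with their highest value at hour 2 or their lowest at hour 42 were not counted. The ratio of a gene's highest to its lowest array ran from 1.42 for Lce1j to 2.74 for Lce1i. Lce1h had an intensity of 9983 at hour 2, 4340.3 at hour 42 and 4461 to 6679 on the other arrays. Lce1i had 1726 at hour 2, 631 at hour 42 and 848 to 1274 elsewhere. Lce1c lay at 12836 at hour 2, 7440.0 at hour 42 and 7921 to 11339.9 on the other arrays. Lce6a, on the same part of chromosome 3, had 3886 at hour 2, 1629 at hour 42 and 1857 to 2477 on the others.

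Genes of the suprabasal layers, taken as a sum, ran the same way on those arrays. The sum of 5 suprabasal keratinocyte genes was highest at hour 2, at 51440, and lowest at hour 42, at 44225, with 46079 to 50365 on the other arrays. Krtdap, a secreted protein of differentiating keratinocytes, was highest at hour 2 (10689) and lowest at hour 42 (7503). Krt10 also had its highest value at hour 2 and its lowest at hour 42, while Krt1 was highest at hour 18 (11663) and lowest at hour 14 (9071). The hour 2 array also held the lowest sums of fibroblast, macrophage, sebaceous gland, adipocyte, hair keratin and keratin associated protein genes. Its sum of endothelium genes was the highest of all arrays, at 8519, against 6566 to 8053 on the others. The part of the tissue's makeup in the Lce1 levels was not tested.

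The Sprr genes behaved otherwise on the array of hour 2. All 6 tested Sprr genes had their lowest value there, on the array where the Lce1 genes were highest. Of all 14953 genes tested, 6936 lay above their own mean on that array, and how many had their lowest value there was not counted. The receptor median, at the dim end, was lowest there too, at 70.5 against 82.4 to 117, and its part in the values of the dim Sprr2d, Sprr2e and Sprr2k was not tested. Sprr1a, a cross-bridging protein of the envelope, had intensities of 4716, 9775 and 8931 at ZT2, 10333 and 10310.2 at ZT6, 9431 and 9237 at ZT10, 8299.5 and 8616 at ZT14, 10296 and 8429 at ZT18, and 7970.5 and 10135 at ZT22. The single value of hour 2 lay far below the other 12, which span 7970.5 to 10333. Sprr4 had 1217 at hour 2 and 2243 to 3718 on the other arrays. Sprr2d had 371 at hour 2, 591 at hour 46, its highest, and 392 to 501 on the other arrays. Rptn, which encodes the S100 fused-type protein repetin, had 165 at hour 2 and 289 to 545 elsewhere. The part of the dim end in the Rptn value of hour 2 was not tested.

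Sprr1b, which is induced when epidermis is stressed, had the widest range of the Sprr genes. It had intensities of 871, 2529.7 and 6669.6 on the 3 ZT2 arrays, 2484 and 2535 at ZT6, 1741 and 1676 at ZT10, 1423 and 1844 at ZT14, 2212 and 1867 at ZT18, and 1686 and 3840.4 at ZT22. Its lowest and its highest array were both of ZT2, at hours 2 and 50, so the spread between pools of the same time of day covered the whole range. The fitted difference of 0.67 ± 0.47 in log2 (SE) had an adjusted p of 0.591 in limma's F test. Of the other tested Sprr genes, Sprr2k had an adjusted p of 0.244, and those of Sprr2d and Sprr2e were 0.908 and 0.914.

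The promoters of Lce1c and Sprr1a, taken as the members of the Lce and Sprr families with the highest median intensity, are shown in the same form. Any link of these sequences to the levels was not tested.
Lce1c promoter, chr3:92678997-92679246, plus strand: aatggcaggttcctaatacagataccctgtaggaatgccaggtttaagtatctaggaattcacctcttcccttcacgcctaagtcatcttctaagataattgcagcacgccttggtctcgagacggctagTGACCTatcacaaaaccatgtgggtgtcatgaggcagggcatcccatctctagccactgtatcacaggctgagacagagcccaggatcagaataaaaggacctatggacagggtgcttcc
Sprr1a promoter, chr3:92485882-92486131, minus strand: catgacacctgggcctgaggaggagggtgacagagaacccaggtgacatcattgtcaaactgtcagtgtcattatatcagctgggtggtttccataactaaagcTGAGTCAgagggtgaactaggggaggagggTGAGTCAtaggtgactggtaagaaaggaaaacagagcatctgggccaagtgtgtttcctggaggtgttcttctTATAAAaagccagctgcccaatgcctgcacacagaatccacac
The Sprr1a window held TGAGTCA from bases -146 and -116 and TATAAA from base -43. The Lce1c window held AGGTCA on the opposite strand, written TGACCT here, from base -120, and no match to TGANTCA.

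**Figure D3:**
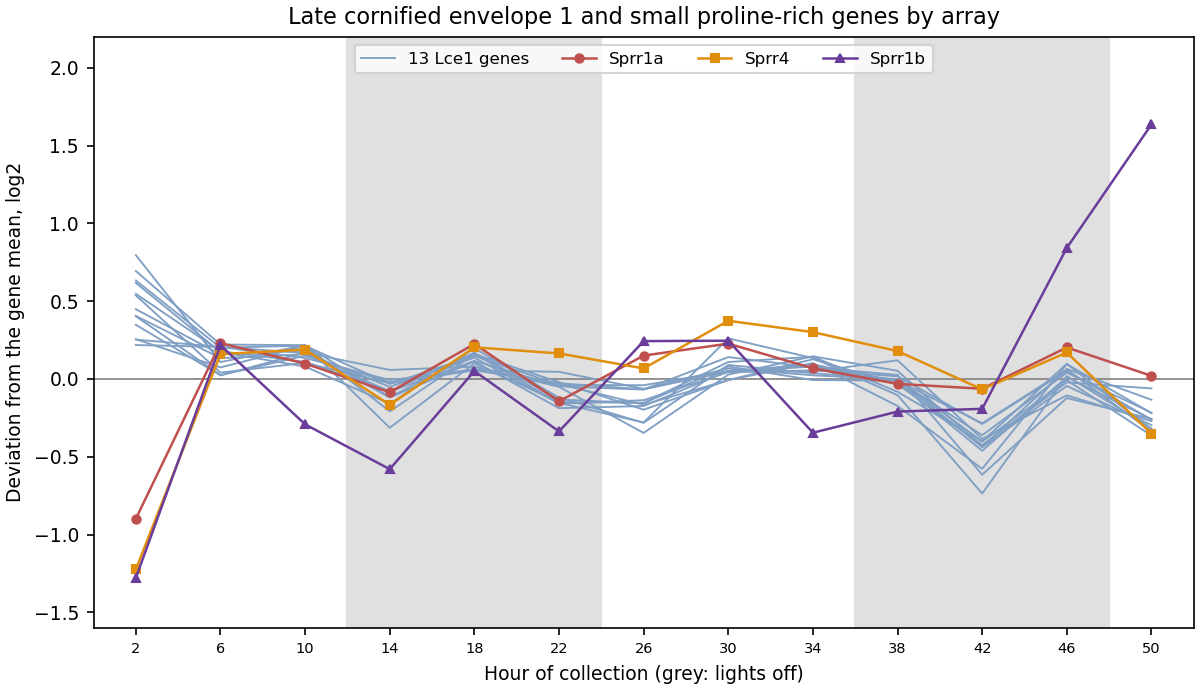
Deviation from the gene's own mean in log2 (vertical axis) against the hour of collection (horizontal axis), with the hours of darkness in grey. There is 1 line per gene, for the 13 Lce1 genes, Sprr1a, Sprr1b and Sprr4. Sprr2d, Sprr2e and Sprr2k, also tested, are not drawn. At hour 2 the Lce1 genes lie between 0.22 and 0.80 above their means while Sprr1a lies at -0.90, and at hour 42 the median Lce1 gene lies at -0.42.

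Among the S100 fused-type genes, Hrnr varied least between arrays, followed by Flg2. Hrnr, which encodes hornerin, lay between 6772 and 7381 on the dark arrays and between 6446 and 7509.5 on the light arrays. Its fitted difference was 0.03 ± 0.07 in log2 (SE), with an adjusted p of 0.941 in limma's F test. Flg2 lay between 5212 and 6295 in the dark and between 4866 and 6661 in the light, with an adjusted p of 0.919. Neither Rptn (adjusted p = 0.863) nor Tchhl1 (adjusted p = 0.779) was called. Crnn, which encodes cornulin, was too dim to be tested. Across the 13 arrays Crnn and Rptn had a Pearson r of 0.28 (permutation p = 0.268, adjusted 0.402) and a Spearman rho of 0.21 (permutation p = 0.481, adjusted 0.629), and r was 0.363 without hours 10 and 46.

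At hour 46 a few members stood far above their values on the other arrays, together with hair keratins. S100a3, a calcium-binding protein of the hair cuticle, had an intensity of 1717 there and 153 to 234 on the other 12 arrays, or 10.0 times their median. Crnn had 632, against 90.3 to 186 elsewhere, and Tchhl1, which encodes a protein related to trichohyalin of the hair follicle, had 597 against 163 to 255. Tgm3, a transglutaminase of epidermis and hair, was also highest there, at 550.0 against 252 to 492, as was S100a7a, at 539 against 268 to 387. On that array the hair keratin sum was 8.56 times the median of the others, Krt31 reached 11248 against a median of 452 over all arrays, and the trichohyalin gene Tchh reached 4132 against a median of 382. No replicate of that collection exists, and the other ZT22 array, hour 22, had 154 for S100a3 and 187 for Tchhl1. The part of hair follicles in these values was not tested.

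**Figure D4:**
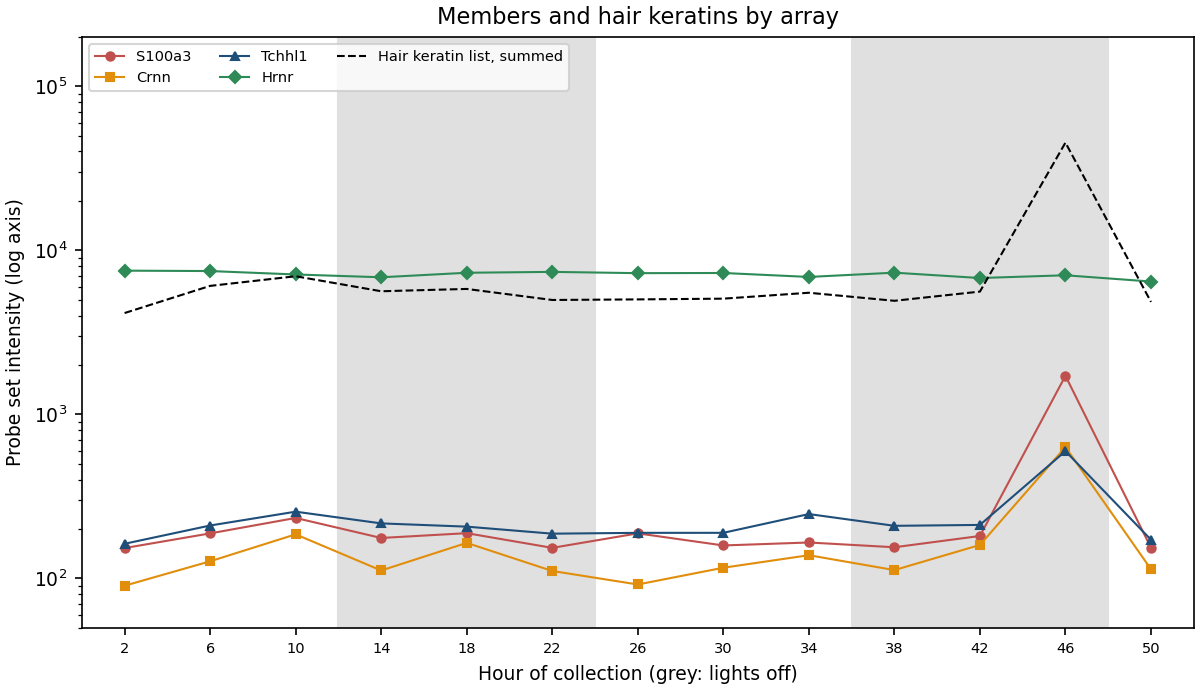
Probe set intensity on a log axis (vertical) against the hour of collection (horizontal), with the hours of darkness in grey. The members drawn are S100a3, Crnn and Tchhl1, each highest at hour 46, and Hrnr, which was highest at hour 2. The summed intensity of the hair keratins is a dashed line. S100a3 reads 1717 at hour 46 and at most 234 elsewhere, and the hair keratin sum reads 45269 and at most 6943.

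The second question was whether the genes differ between dark and light. None of the 42 members was called by limma with Benjamini-Hochberg adjustment, against 0.0201% of all genes. An unadjusted p under 0.05 was found for 6 members, against 8.28% of all genes. Of these, 2 were higher in the dark, against 2.03% of all genes, and 4 were lower, against 6.25%. The 2 higher were S100a7a and Ivl, and the 4 lower were Lce3c, S100a4, Casp14 and S100a1. S100a7a had a lowest, median and highest intensity of 336, 366 and 539 on the dark arrays and of 268, 306 and 354 on the light arrays. Dark minus light was 0.33 ± 0.10 in log2 (SE), with an adjusted p of 0.437, and was 0.41 on day 2 and 0.27 on day 1. The ranges overlapped, and the 539 is the array of hour 46. The receptor median, at the dim end, lay between 82.4 and 117 on the dark arrays and between 70.5 and 102 on the light arrays. Its part in the S100a7a difference was not tested.

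S100a4 had a lowest, median and highest intensity of 673, 895 and 1387 in the dark and of 1042, 1195 and 1305 in the light. Its highest dark array, hour 22, exceeded every light array, while 5 dark arrays lay below all 7 light arrays. Dark minus light was -0.37 ± 0.13 in log2 (SE), with an adjusted p of 0.476 in limma. Without the array of hour 22 (replicate 1 of ZT22) it was -0.49, with an adjusted p of 0.04997, and S100a4 was then called. Lce3c had -0.35 ± 0.09 (SE, adjusted p = 0.357), with -0.29 on day 2 and -0.43 on day 1, and Casp14 had -0.25 ± 0.09 (SE, adjusted p = 0.504). Over the members, 14 were higher and 28 lower in the dark, against 6007 and 8946 of all genes tested. All 15 Lce genes were lower in the dark, with a median of -0.15 in log2 against -0.02 over all genes. With the suprabasal score as a covariate 12 of 15 were lower, with a median of -0.04. Without the array of hour 42 it was 14 of 15 with a median of -0.08, and without that of hour 2 it was 15 of 15 with a median of -0.09.

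A further question was whether day 2 differed from day 1 at matched times of day. No member was called by limma, and 0.0% of all genes were. An unadjusted p under 0.05 was found for 2 members, against 6.53% of all genes, 1 of them higher on day 2 (3.06% of all genes) and 1 lower (3.46%). Tgm3 had intensities of 298, 374, 492, 429, 388 and 550.0 on day 2 and of 252, 370.4, 404, 415, 268 and 272 on day 1, in order of time of day, so that it was higher on day 2 in 6 of 6 pairs. Day 2 minus day 1 was 0.34 ± 0.12 in log2 (SE), with an adjusted p of 0.603 in limma. It was 0.21 without the array of hour 46, where hair keratins were high, or without its day 1 partner, hour 22. Lce6a had 2185, 2092, 1923, 2007, 1629 and 2136 on day 2 and 3886, 2477, 2198, 1857, 2352 and 2390.5 on day 1, with a difference of -0.31 ± 0.11 in log2 (SE) and an adjusted p of 0.603. That difference was -0.20 without the array of hour 2, or without its day 2 partner, hour 26, and -0.08 with the suprabasal score as a covariate.

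The Lce and Sprr families differed in the sign of their day difference. All 15 tested Lce genes were lower on day 2, as were 7028 of the 14953 genes tested. The Lce median was -0.19 in log2, against 0.009 over all genes. Without the array of hour 2, or without its day 2 partner, hour 26, the Lce median was -0.11, with all 15 still lower. It was -0.13, with 14 of 15 lower, without the array of hour 18 or its partner, hour 42. With the suprabasal score as a covariate it was 0.05, with 12 of 15 higher on day 2. All 6 tested Sprr genes were higher on day 2, as were 7925 of all genes tested, with a median of 0.14. That median was 0.060 without the array of hour 2 or its partner. It was 0.08, with 4 of the 6 higher, without the array of hour 22 or its partner, hour 46. Without the arrays of hours 46 and 2 together, 2 of the 6 were higher and the median was -0.05.

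The shape of the 24 h curve was then compared between days as an interaction in limma. No member was called and 0.0% of all genes were, while 12.8% of all genes had an unadjusted p under 0.05. Among the members 1 did, S100a14, with a fitted difference of 0.18 in log2 on day 2 and 0.66 on day 1 (adjusted p = 0.386). The 4 genes with a called rhythm had fitted peaks at 21.1 h on day 2 and 22.4 h on day 1 for Ivl, 1.56 and 0.055 h for Calml3, 1.26 and 0.280 h for S100a6, and 7.21 and 7.98 h for Lce3c.

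S100a8 and S100a9, which form the antimicrobial heterodimer calprotectin of neutrophils and stressed keratinocytes, were dim on all arrays. S100a8 had intensities of 142, 155 and 183 at ZT2, 188 and 178 at ZT6, 225 and 235 at ZT10, 249 and 189.7 at ZT14, 208 and 223 at ZT18, and 160.4 and 262 at ZT22. S100a9 had 160.3, 183 and 199 at ZT2, 174 and 194 at ZT6, 254 and 248 at ZT10, 223 and 186 at ZT14, 212 and 222 at ZT18, and 153 and 248 at ZT22. The 2 genes varied together, with a Pearson r of 0.889 (permutation p = 7.0e-05, adjusted 0.00021) and a Spearman rho of 0.868 (permutation p = 0.00033, adjusted 0.00099), and r was 0.845 without hours 2 and 46. Both were low at hours 2 and 22, where the receptor median, a measure of the dim end of an array, was also lowest, and the part of that background in the correlation was not tested. The neutrophil genes Ly6g (100.3 to 181) and Ngp (71.5 to 143) were dim as well, while 5 of 12 neutrophil genes listed passed the filter. The sum of the 12 was 3510 at hour 2, 2923 at hour 46 and lowest, at 2549, at hour 22.

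Of the 14 members that were not tested, 4 were Lce3 genes, 7 Sprr genes and 2 S100A genes (S100a2 and S100a8), besides Crnn. Their intensities lay between 10.8 and 262, apart from the array of hour 46 for Crnn. They include Sprr2g and Sprr2j-ps, which the RefSeq gene table lists as transcribed pseudogenes. A probe set shared by 4 Sprr2 genes, Sprr2b among them, had a median intensity of 1924, so a dim single-gene probe set does not show that a family's transcripts were rare.

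**Figure D5:**
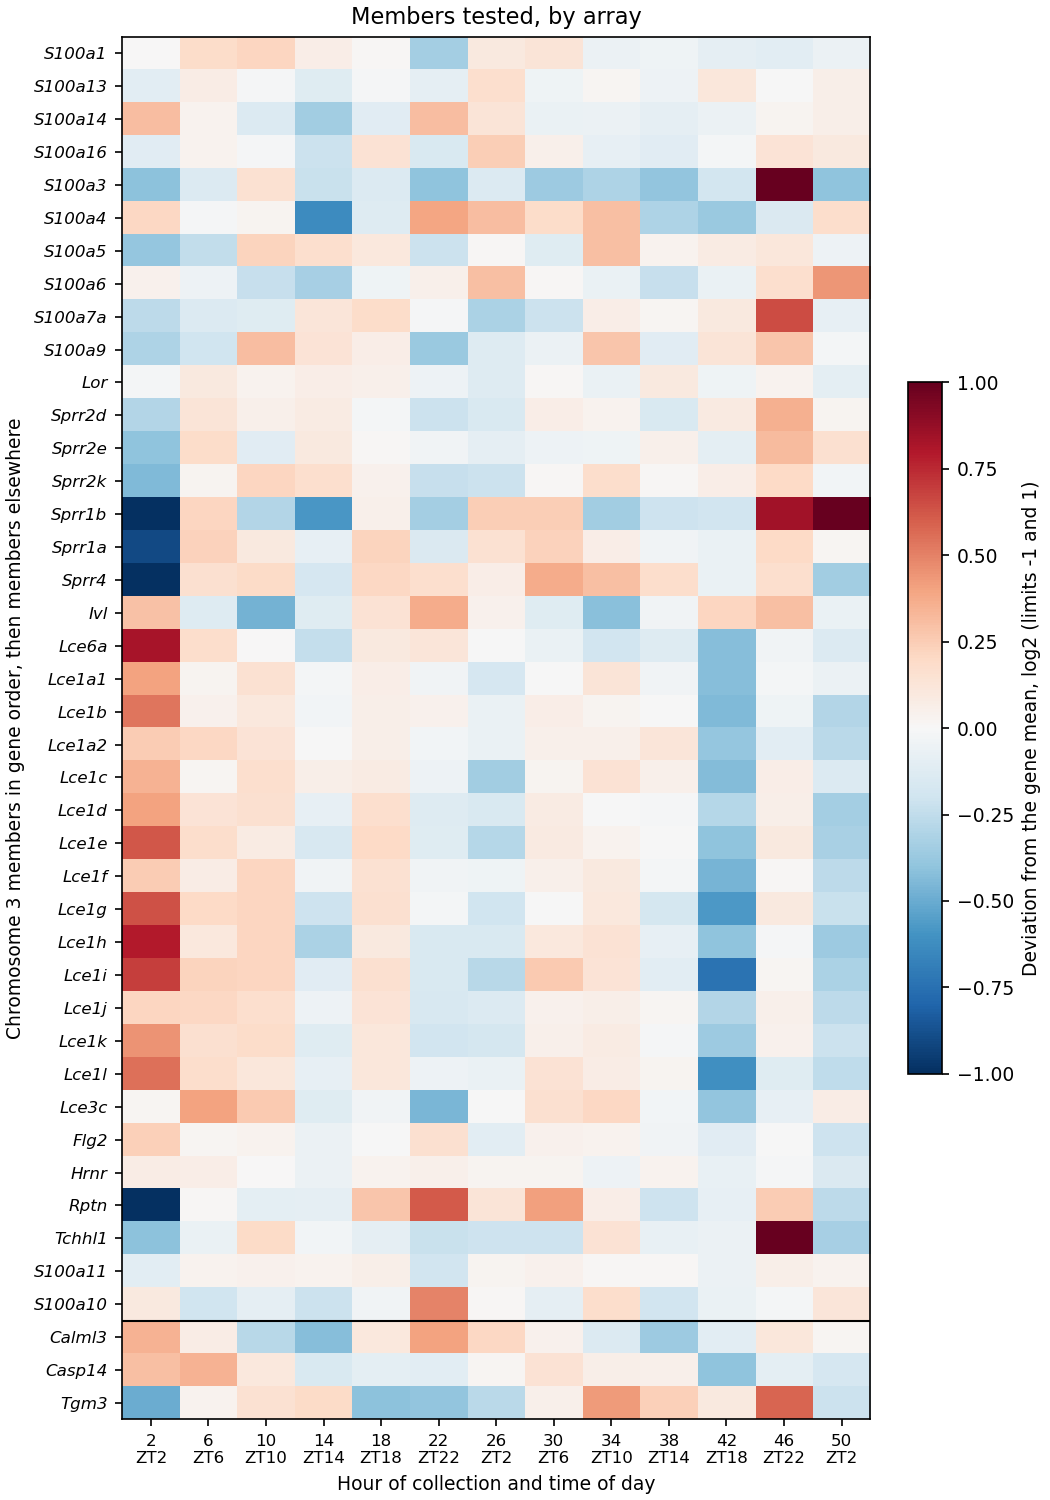
Deviation of each of the 42 tested members from its own mean in log2 (colour, limits -1 and 1), with the 13 arrays in order of hour along the page. Down the page are the chromosome 3 members in gene order, then Calml3, Casp14 and Tgm3. The Lce1 genes form a block that is high at hour 2 and low at hours 42 and 50, and the Sprr genes are low at hour 2.

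Related genes outside the family were set beside it, and their counts stand against the 18.6% of all genes with an unadjusted p under 0.05. Of 25 tested genes of cornification outside the complex none was called in the 24 h test, and 4 had an unadjusted p under 0.05. They were Tgm5 (fitted peak 2.76 h, 1.49-fold, adjusted p = 0.0773 in limma's F test) and Lypd3, Tgm1 and Ppl, with folds of 1.18 to 1.21. Of 6 other tested genes of the complex none was called, and Pglyrp4 had an unadjusted p of 0.0420. Among 24 tested regulators of keratinocyte differentiation none was called and 5 had an unadjusted p under 0.05, the smallest that of Arnt, at 0.00955 (1.19-fold, adjusted p = 0.147). None of 5 suprabasal and 9 basal keratinocyte genes was called, and 0 and 3 of them had an unadjusted p under 0.05.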

How the data were processed

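Each array has 1 column of linear probe set intensity as deposited. Affymetrix Expression Console 1.1.1 and PLIER 2.0 were used, per the submitters' processing notes. How the authors normalized the intensity values between arrays, and on which genome build, is not given in the sources used here. Column medians lay between 354 and 393.

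Of 35557 probe sets, 21789 named 1 gene in the platform annotation and were kept, and the brightest was used for each of 19938 genes. S100a11 alone among the members had more than 1 probe set. Probe sets of several genes, 4 of which hold Lce or Sprr genes, were set aside. Intensities were taken as log2(intensity + 16), and the dimmest 25% of genes were left out. In R 4.3.3, limma 3.58.1 (lmFit and eBayes) fitted the 24 h cosine and sine, dark minus light, day 2 minus day 1 with time of day as a block, and the interaction of day with the 24 h curve, all over 14953 genes and with Benjamini-Hochberg adjustment. Correlations of 3 pairs of members used 100000 permutations, two-sided, adjusted over the 3 pairs. They were fixed with pairs of Flg that are not analysed here. The fits were tested on simulated data.

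The members and gene lists were chosen with earlier results of these data known. Any member could be named, and values by array were given for called members and, in each role, for those with the smallest p, the highest level and the widest range. Other values by array were chosen after they were seen. From each other list, up to 4 genes with the smallest p were named. Alternatives covered the offset, the filter, the normalization, the choice of probe set, covariates, arrays left out, the replicate block and the form of the test. Promoter sequences came from RefSeq (GRCm38.p6). Of the 56 members, 49 matched.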

Additional observations from a re-analysis of the deposited data

Results flagged for a closer look

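In each of 84 groups, the dark or the light arrays of a tested member, the highest and the lowest array were compared with the rest of their group, and 14 stood apart. Chance alone sets about 1 in 20 groups apart, and members of a family are not independent. No cause was tested for any of them.

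At hour 46 S100a3 read 1717 (other dark arrays 154 to 189), Tchhl1 597 (187 to 216) and S100a7a 539 (336 to 387), on the array where the hair keratin sum was 45269 and at most 6943 elsewhere. At hour 42 Lce1a1 read 6999, Lce1b 2432, Lce1c 7440.0, Lce1f 814, Lce1i 631 and Lce1l 2576, each below the other 5 dark arrays, on the array with the lowest suprabasal keratinocyte sum (44225). At hour 2 Lce6a read 3886 (other light arrays 1923 to 2477), Sprr1a 4716 (8931 to 10333) and S100a11 11881 (12919 to 13214), on the array with the lowest fibroblast sum (50081). At hour 22 S100a10 read 9841 (other dark arrays 5994 to 6848) and S100a5 258 (309 to 339.9).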

How the results depend on the processing

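The count of members with a called 24 h rhythm, 4 as reported, was 2 with the receptor gene score as a covariate (Ivl and Lce3c), 0 of 42 with time of day as a factor (6 with an unadjusted p under 0.05 and 44 of all genes called), and between 1 and 5 with a single array left out. It was 1, Ivl, without ZT10 replicate 1, ZT14 replicate 1 or ZT14 replicate 2. It was 2, Calml3 and Ivl, without ZT2 replicate 2, ZT6 replicate 2 or ZT2 replicate 3. It was 5, with Tgm3 (adjusted p = 0.0178 in limma), without ZT22 replicate 2. Over all genes, 318 called as reported, the count was 227 with no filter on dim genes, 278 with the dimmest 50% left out, 406 after quantile normalization, 164 with the receptor score and between 128 and 422 with a single array left out. With the day of collection as a replicate block, 3 members (Calml3, S100a6 and Ivl) and 212 of all genes were called. The numbers did not pair the arrays, since deviations of arrays of the same day correlated between -0.66 and 0.56 with a median of 0.00034. Dark minus light called 0 members as reported and in the alternatives run, apart from 1, S100a4, without ZT22 replicate 1. Day 2 minus day 1 and the comparison of curves between days called 0 in each alternative run. The peak-to-trough difference of Ivl lay between 0.62 and 0.78 in log2 over 27 alternatives, that of Calml3 between 0.49 and 0.67, that of S100a6 between 0.42 and 0.56, and that of Lce3c between 0.50 and 0.68 over 26. The causes of lost calls were not tested. Fits with an array left out have fewer arrays, and calls were also lost in some alternatives that kept all 13. Signal near the dim end limits Lce3c (212 to 396), S100a7a (268 to 539), Rptn (165 to 545) and the Sprr2 genes.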

Other observations

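Probe sets that name several genes of the family were not part of any comparison. A probe set of Sprr2a1, Sprr2a2, Sprr2a3 and Sprr2b lay between 1138 and 2806 in intensity, with a median of 1924. A pair of probe sets of Sprr2a1 and Sprr2a3 held identical values, between 529 and 1389 with a median of 1005. The probe set of 6 Lce3 genes lay between 1004 and 1611, with a median of 1358. The second probe set of S100a11 had a median of 12495, and the one used a median of 13090.3.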
